A study of Mus musculus with 34 samples.

Results

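Genes of the mitotic apparatus were followed in MOSJ-Dkk-1 cells, a murine osteochondral sarcoma line that secretes human Dkk-1 from a lentiviral cassette under the cytomegalovirus promoter. The set was given by name and holds 40 genes in 9 roles, from the cyclins that start mitosis to the proteins that split the cell at its end. Values were found for 39 of them among the 16576 genes listed. Kif11, the plus-end motor that pushes spindle poles apart, has no expression value because no row carried its name. It is counted in the promoter search alone. The 18 cultures formed 6 groups of 3. Cells either grew in log phase or were held at confluence without fresh medium (nutritional stress), and in each state they received no treatment (NT), 5 µM of a vivo morpholino against human Dkk-1 (DkkMo) or 5 µM of its mismatched control (scrMo). All cultures carried the human Dkk-1 cassette, so NT is a high Dkk-1 state and not a wild-type state. Human Dkk-1 has no row in a mouse gene table, so the labels could not be checked by the transcript that the morpholino targets. The labels do not say whether the 3 cultures of a group were started separately, and p values measure only the spread between them.

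A dividing cell passes into mitosis when Cdk1, bound to cyclin A or B, is activated by the Cdc25 phosphatases. Kinetochores then tie chromosomes to spindle microtubules, and a checkpoint holds the anaphase-promoting complex (APC/C) inactive until every chromosome is attached. The APC/C marks cyclin B and securin for destruction, separase cuts cohesin, and the central spindle and an actomyosin ring divide the cytoplasm. Transcripts of these genes are made in G2 and mitosis and are low in cells that have left the cycle, which is why Mki67 and its companions are used to gauge proliferation in tumours. In a bulk culture, fewer cells in G2 and mitosis and less RNA per such cell cannot be told apart.

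The promoters of many of these genes carry short elements that a reader can see by eye. The CHR element (TTTGAA or TTCGAA) is bound by the MuvB complexes that silence these genes in resting cells and activate them in G2, and CCAAT boxes are bound by NF-Y. Both strands of the 250 bases before the RefSeq start were searched for these letters in the 33 genes of the set that had a promoter entry, on build GRCm38.p6. CCAAT was found in 25 of the 33 (75.8%), against 33.8% of 32817 promoters of the mouse genome. A CHR was found in 10 (30.3%), against 17.1% of all promoters, and both motifs in 9 (27.3%), against 6.01%. Promoters with CCAAT boxes in the same orientation whose starts lay 31 to 34 bases apart numbered 8 of 33 (24.2%), against 0.808% of all promoters, a spacing chosen after the sequences were seen. These counts describe letters in a window and not sites that were shown to be bound. The start of the main GENCODE transcript lay 3867 bases upstream of the RefSeq start for Kif2c, 488 for Cdca3, 328 for Kif4 and 270 for Pttg1. For Mad2l1 it lay downstream. The windows of these genes, with the CHR counted for Kif2c, may not be those of the promoter in use.

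The 200 bases before the start of 5 genes with both motifs are given as examples, and their motifs are not arranged alike. Those of Hmmr are given because it held CCAAT boxes without a CHR. Capitals mark CCAAT boxes (CCAAT, or ATTGG where the box lies on the other strand) and CHR elements (TTTGAA), all sequences run 5′ to 3′ along the gene's strand, and positions are on GRCm38.p6.
Cdk1 (chr10:69352913-69353112, minus strand): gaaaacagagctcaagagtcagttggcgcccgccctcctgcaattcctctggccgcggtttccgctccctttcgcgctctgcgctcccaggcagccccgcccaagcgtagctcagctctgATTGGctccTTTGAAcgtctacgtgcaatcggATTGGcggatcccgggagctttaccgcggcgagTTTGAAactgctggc
Ccnb2 (chr9:70421555-70421754, minus strand): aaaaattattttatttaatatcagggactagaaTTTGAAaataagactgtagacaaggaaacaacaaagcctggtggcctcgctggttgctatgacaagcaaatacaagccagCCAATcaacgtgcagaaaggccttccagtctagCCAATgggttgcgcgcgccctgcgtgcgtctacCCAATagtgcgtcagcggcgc
Cdc20 (chr4:118437344-118437543, minus strand): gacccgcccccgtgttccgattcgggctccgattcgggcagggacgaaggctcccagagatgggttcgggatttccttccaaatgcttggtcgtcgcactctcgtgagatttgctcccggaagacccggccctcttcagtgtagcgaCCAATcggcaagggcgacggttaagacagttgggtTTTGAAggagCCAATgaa
Espl1 (chr15:102296093-102296292, plus strand): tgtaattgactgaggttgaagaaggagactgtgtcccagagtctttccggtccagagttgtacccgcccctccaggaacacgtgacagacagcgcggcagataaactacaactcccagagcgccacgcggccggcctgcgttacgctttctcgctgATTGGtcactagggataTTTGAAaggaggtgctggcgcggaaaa
Mki67 (chr7:135716380-135716579, minus strand): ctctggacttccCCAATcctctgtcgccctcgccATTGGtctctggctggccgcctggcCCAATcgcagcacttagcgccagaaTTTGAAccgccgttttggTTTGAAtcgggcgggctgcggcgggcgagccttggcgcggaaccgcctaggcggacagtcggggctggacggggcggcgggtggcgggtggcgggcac
Hmmr (chr11:40733438-40733637, minus strand): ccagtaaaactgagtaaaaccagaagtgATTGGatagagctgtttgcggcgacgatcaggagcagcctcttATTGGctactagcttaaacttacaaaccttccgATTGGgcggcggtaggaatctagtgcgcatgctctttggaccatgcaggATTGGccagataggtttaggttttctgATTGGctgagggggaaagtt
In Cdk1 the last CHR began 15 bases before the start, with CCAAT boxes at 48 and 80 bases. Ccnb2 carried CCAAT boxes at 21, 54 and 87 bases and its only CHR at 167 bases. Cdc20 had its CHR at 18 bases between boxes at 8 and 53. Mki67 held CHR elements at 98 and 116 bases and no motif nearer the start.

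Reads were deposited as variance-stabilised (VST) log2 values, and the transformation was reversed to give normalized counts, which are reads divided by a size factor for each library. Libraries held 25.9 to 44.8 megareads on tested genes. The VST scale compresses low counts, its lowest value of 7.198 standing for no reads, so folds on that scale understate the fall of a gene that nearly disappears. For that reason each fold change is accompanied by normalized counts. Calls came from limma fitted to all 16562 tested genes, and asked both for an adjusted p under 0.05 and for a log2 change beyond 0.585, which is 1.5-fold. The osteochondral markers Sox9, Runx2 and Spp1 were well expressed, with Runx2 between 1736 and 5718 normalized counts and Sox9 between 4523 and 9248, while Alpl did not exceed 24.4, Bglap 43.9 and Col2a1 26.8, and Sp7, Ibsp, Acan and Comp were not listed. The 6 listed osteoblast markers of 8 summed to 234200 to 266200 normalized counts in log-phase NT, 112200 to 149300 with scrMo and 178700 to 208500 with DkkMo. Under stress that sum was 71440 to 77850 in NT, 77680 to 81450 with scrMo and 59650 to 60880 with DkkMo. It was lower in every stressed culture, as most of the mitotic set was, and Spp1 alone read 49250 to 214500. The chondrocyte markers Sox9 and Col2a1 summed to 4758 to 5880 in log-phase NT, 5200 to 7032 with scrMo and 4533 to 5503 with DkkMo. Under stress they summed to 8688 to 9267 in NT, 6067 to 6595 with scrMo and 5856 to 6620 with DkkMo. That sum was thus higher under stress in NT and DkkMo, while the scrMo ranges overlapped. The 2 listed leucocyte markers of 3, Ptprc and Cd68, summed to 408 to 422 normalized counts in log-phase NT cultures, 851 to 1079 with scrMo and 679 to 762 with DkkMo. Under stress they summed to 1306 to 1512 in NT, 1484 to 1551 with scrMo and 1530 to 1565 with DkkMo, with Ptprc at no more than 20.3 in any culture. The osteoblast and leucocyte marker sums thus differed between the log-phase arms as well as between culture states. Cd68 made up nearly all of the leucocyte sum, and the part of any marker list in the results was not tested. Pecam1 lay between 269 and 427 and Krt8 did not exceed 22.8.

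In log phase the mitotic set was detected throughout. In the NT cultures its median gene stood at 803, 949 and 897 normalized counts. Per kilobase of exonic sequence the highest were Racgap1 (694), Tpx2 (688) and Ube2c (678), and the lowest were Cdc25c (49.0) and Ttk (54.6). Exonic length merged the exons of all annotated transcripts of a gene, so this order depends on the annotation. No gene of the set had a group mean below 50 normalized counts in any log-phase arm.

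Held at confluence, the cultures lost nearly the whole programme. In NT cultures 38 of 39 genes fell and Pttg1 rose, while 9.90% of all tested genes were called lower and 8.22% higher. The same 38 were called lower with scrMo (6.28% of all genes lower, 4.38% higher) and with DkkMo (10.2% lower, 6.24% higher), and Pttg1 was called higher with scrMo. The median log2 change over the 39 genes was -1.85 in NT, -1.45 with scrMo and -1.92 with DkkMo, beside medians of -0.01 over all genes in each of the 3 arms. As a share of the log-phase level, the median gene of the set kept 9.09% of its normalized count in NT cultures, 16.9% with scrMo and 11.0% with DkkMo. In NT, 21 genes fell below 10% of their log-phase level, against 13 with scrMo and 18 with DkkMo. The 3 stressed libraries did not overlap the 3 log-phase libraries for any of the 39 genes in any arm. With 3 against 3 cultures an exact two-sided permutation test cannot give a p below 0.1, so single genes rest on the limma fit. The 3 arms use separate cultures for both states and share no samples.

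**Figure D1:**
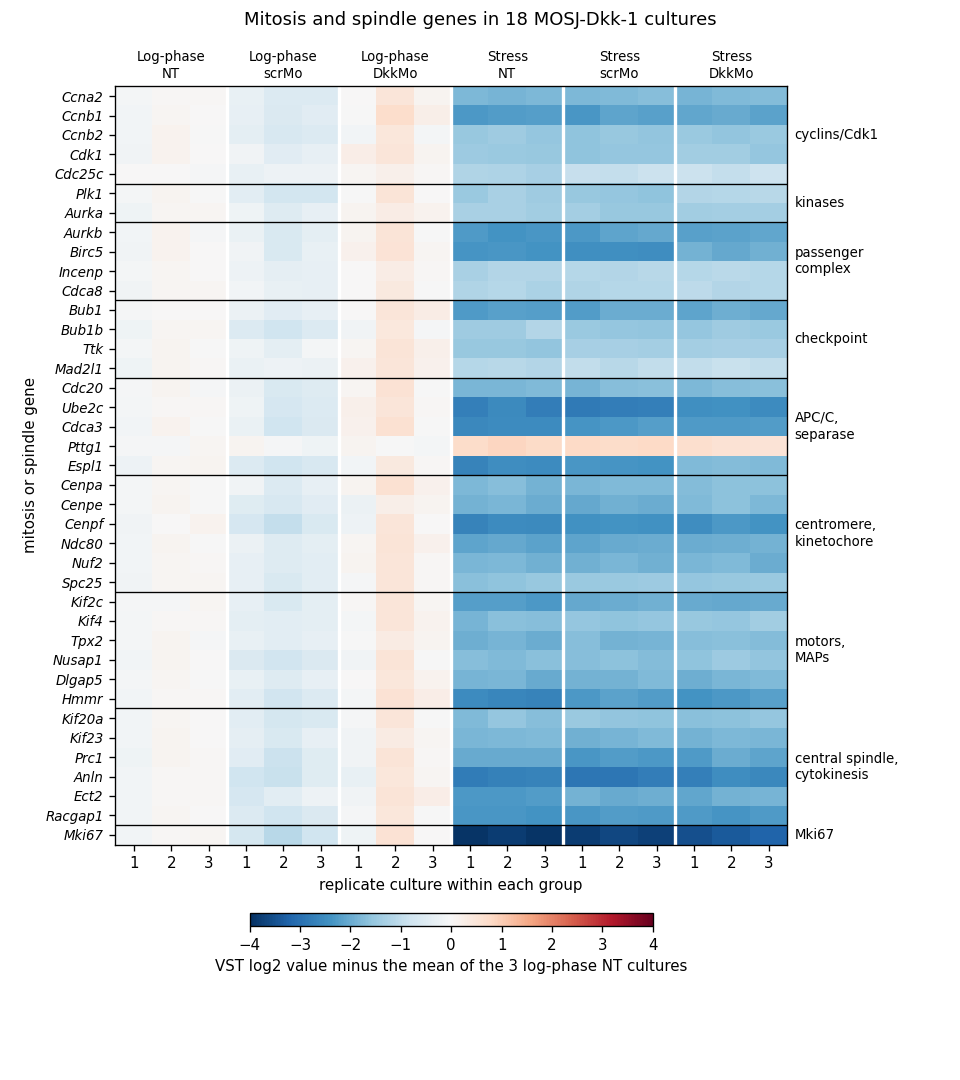
Colour shows the VST log2 value of each of 39 genes (rows, grouped by role) in each of 18 cultures (columns, 3 per group) minus the gene's mean in the 3 log-phase NT cultures. The stressed columns are blue for every gene but Pttg1, log-phase scrMo is pale blue, and log-phase DkkMo replicate 2 is the one pale red column.

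Mki67 encodes Ki-67, the protein that coats mitotic chromosomes and keeps them apart. In log phase it stood at 3656, 4123 and 4286 normalized counts in NT cultures, 2345, 1697 and 2211 with scrMo, and 3496, 6129 and 4074 with DkkMo. Under stress it read 68.1, 85.0 and 65.4 in NT, 84.0, 116 and 98.2 with scrMo, and 140, 174 and 215 with DkkMo. On the VST scale it showed the largest fall of the set in every arm, with a log2 change of -3.88 ± 0.14 (SE) in NT (limma adjusted p = 3.73e-14), -2.85 ± 0.14 with scrMo and -3.51 ± 0.14 with DkkMo. By normalized counts Kif2c, Hmmr and Bub1 were among the genes that fell further in NT. The stressed cultures kept 1.81%, 4.78% and 3.86% of the log-phase Mki67 count, and no stressed library came near a log-phase library.

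The cyclins and Cdk1 start mitosis, and all 5 genes of this role fell in each arm. Ccnb1, the cyclin whose destruction ends mitosis, changed most. In log phase it had 811, 949 and 894 normalized counts in NT, 654, 510 and 575 with scrMo, and 868, 1622 and 1083 with DkkMo. Stressed cultures had 32.3, 39.4 and 43.6 in NT, 30.6, 55.9 and 48.6 with scrMo, and 57.8, 66.4 and 51.2 with DkkMo. The log2 change was -2.25 ± 0.12 in NT, -1.74 ± 0.12 with scrMo and -2.40 ± 0.12 with DkkMo, which left 4.35%, 7.76% and 4.91% of the log-phase count. Processed copies of Ccnb1 exist in the mouse genome, and Ccnb1-ps, whose transcript matched 99.2% of the aligned bases, had a mean of 18.4 normalized counts in log-phase NT and 4.48 under stress, so some reads could be shared. Cdc25c, the phosphatase that activates Cdk1, changed least on the VST scale. It went from 250, 245 and 228 normalized counts to 21.8, 18.7 and 11.4 in NT. With scrMo it went from 163, 186 and 181 to 49.6, 44.9 and 57.3, and with DkkMo from 265, 314 and 259 to 57.8, 46.0 and 59.4. Its small log2 change of -1.25 ± 0.06 in NT stood beside a loss to 7.17% of the log-phase count, since the VST scale compresses values this low. Ccna2, the cyclin of S phase and early mitosis, fell from 1816, 2021 and 2006 to 387, 361 and 383 in NT, from 1518, 1257 and 1253 to 388, 394 and 422 with scrMo, and from 1966, 2855 and 2114 to 357, 401 and 405 with DkkMo. Cdk1 kept 27.7%, 33.1% and 22.9% of its log-phase count in NT, scrMo and DkkMo, the most in this role, and Ccnb2 kept 11.6%, 17.9% and 10.2%.

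Plk1 and Aurka, kinases of centrosome maturation and spindle assembly, fell in each arm. Aurka went from 906, 1129 and 1120 normalized counts to 282, 280 and 253 in NT, from 899, 656 and 778 to 269, 214 and 220 with scrMo, and from 1158, 1363 and 1179 to 250, 264 and 268 with DkkMo. Its log2 changes were -1.34, -1.12 and -1.56, each with an SE of 0.08. Plk1 went from 694, 813 and 728 to 128, 172 and 143 in NT, from 497, 349 and 358 to 120, 114 and 106 with scrMo, and from 732, 1164 and 762 to 205, 212 and 219 with DkkMo. The 3 stressed DkkMo cultures lay above the 6 other stressed cultures for Plk1. A pseudogene, Plk-ps1, matches 82.4% of the length of the Plk1 transcript at 93.5% of aligned bases. It moved the other way, with means of 12.8 normalized counts in log-phase NT and 48.6 under stress.

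The chromosomal passenger complex corrects faulty attachments and then moves to the midzone, with Aurkb as its kinase and Birc5 (survivin), Cdca8 (borealin) and Incenp as its scaffold. All 4 genes fell in each arm, and their falls were unequal. Birc5 went from 1282, 1611 and 1438 normalized counts to 104, 112 and 102 in NT, from 1278, 860 and 1126 to 90.4, 88.0 and 82.6 with scrMo, and from 1640, 2248 and 1545 to 218, 174 and 207 with DkkMo. Its log2 changes were -2.36, -2.12 and -2.22 (SE 0.11 each). Incenp kept far more: 1437, 1620 and 1566 became 482, 539 and 545 in NT, 1289, 1154 and 1169 became 566, 547 and 575 with scrMo, and 1565, 1953 and 1584 became 562, 586 and 560 with DkkMo. Its log2 changes were -1.21, -0.84 and -1.24 (SE 0.07 each), and Incenp kept 33.9%, 46.8% and 33.5% of its log-phase count while Aurkb kept 1.93%, 5.83% and 3.19%. Aurkb had 660, 831 and 694 normalized counts in log-phase NT, 560, 399 and 488 with scrMo and 808, 1148 and 722 with DkkMo. Under stress it read 17.5, 10.4 and 14.2, then 15.3, 31.2 and 37.9, then 25.4, 27.6 and 32.6 in the same order of arms. Cdca8 kept 24.1%, 32.6% and 23.8%.

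The spindle checkpoint genes Bub1, Bub1b, Ttk and Mad2l1 encode the sensors of unattached kinetochores, and all 4 fell in each arm. Bub1 almost vanished from stressed NT cultures. It went from 519, 564 and 563 normalized counts to 3.49, 6.22 and 5.69 there, from 434, 336 and 396 to 3.82, 17.4 and 16.5 with scrMo, and from 556, 868 and 733 to 10.2, 20.4 and 12.8 with DkkMo. The NT share that remained was 0.936%, with an exact 95% counting interval of 0.535% to 1.52% from 16 reads in 3 libraries, an interval that covers counting error only. Mad2l1 changed least in this role. It went from 785, 1006 and 962 to 291, 296 and 274 in NT, from 724, 750 and 736 to 339, 299 and 340 with scrMo, and from 1057, 1379 and 1060 to 349, 384 and 345 with DkkMo. That left 31.3%, 44.2% and 30.8% of the log-phase count. Bub1b, the large inhibitory kinase-like subunit of the checkpoint, had 721, 914 and 897 in log-phase NT, 495, 381 and 498 with scrMo and 740, 1229 and 802 with DkkMo. Its stressed values were 176, 175 and 241, then 155, 141 and 136, then 146, 173 and 158. Ttk, the Mps1 kinase, kept 2.23%, 8.15% and 4.58%.

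Of the 5 genes around the APC/C, 4 fell in each arm and the other rose. Ube2c, the E2 enzyme that starts ubiquitin chains for the APC/C, went from 1637, 1830 and 1824 normalized counts to 83.0, 118 and 76.8 in NT. With scrMo it went from 1549, 1019 and 1136 to 70.0, 77.9 and 82.6, and with DkkMo from 2075, 2604 and 1844 to 137, 144 and 125. Its log2 changes were -2.69, -2.33 and -2.72 (SE 0.11 each). Of its exonic bases 22.8% lie opposite Tnnc2, and whether the counting used strand is not given in the sources used here. Cdc20, the activator that the checkpoint holds back, went from 756, 878 and 750 to 76.0, 76.7 and 87.2 in NT, from 644, 433 and 488 to 71.3, 99.9 and 106 with scrMo, and from 839, 1295 and 782 to 83.2, 100 and 108 with DkkMo. Cdca3, an adaptor in the degradation of Wee1, went from 778, 979 and 848 to 10.5, 13.5 and 13.3 in NT, from 673, 399 and 497 to 26.7, 30.2 and 39.9 with scrMo, and from 1010, 1469 and 844 to 34.5, 34.7 and 38.4 with DkkMo. For Cdca3 the NT share that remained was 1.43%, against 6.17% with scrMo and 3.24% with DkkMo.

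Espl1 and Pttg1 are partners, and they moved in opposite directions. Espl1 encodes separase, the protease that cuts cohesin at anaphase. It had 1542, 1893 and 1974 normalized counts in log-phase NT, 1132, 918 and 1051 with scrMo and 1643, 2414 and 1841 with DkkMo. Under stress it read 96.1, 136 and 126 in NT, 171, 168 and 158 with scrMo, and 354, 362 and 359 with DkkMo, and these 3 groups did not overlap. Pttg1 (ENSMUSG00000020415, chromosome 11, bases 43420250 to 43426251, minus strand of GRCm38) encodes securin, which holds separase inactive until the APC/C destroys it. In log phase it read 916, 915 and 997 in NT, 1028, 903 and 811 with scrMo, and 1040, 929 and 890 with DkkMo, so the arms overlapped. Stressed cultures had 1749, 1919 and 1789 in NT, 1812, 1726 and 1854 with scrMo, and 1643, 1541 and 1487 with DkkMo. The log2 rise was 0.79 ± 0.06 in NT (limma adjusted p = 2.37e-09), 0.81 ± 0.06 with scrMo (adjusted p = 3.60e-09) and 0.58 ± 0.06 with DkkMo (adjusted p = 1.75e-07), the last lying just under the 1.5-fold threshold. Per kilobase of exonic sequence Pttg1 reached 910 normalized counts in stressed NT cultures, and the next gene of the set, Tpx2, was at 139.

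**Figure D2:**
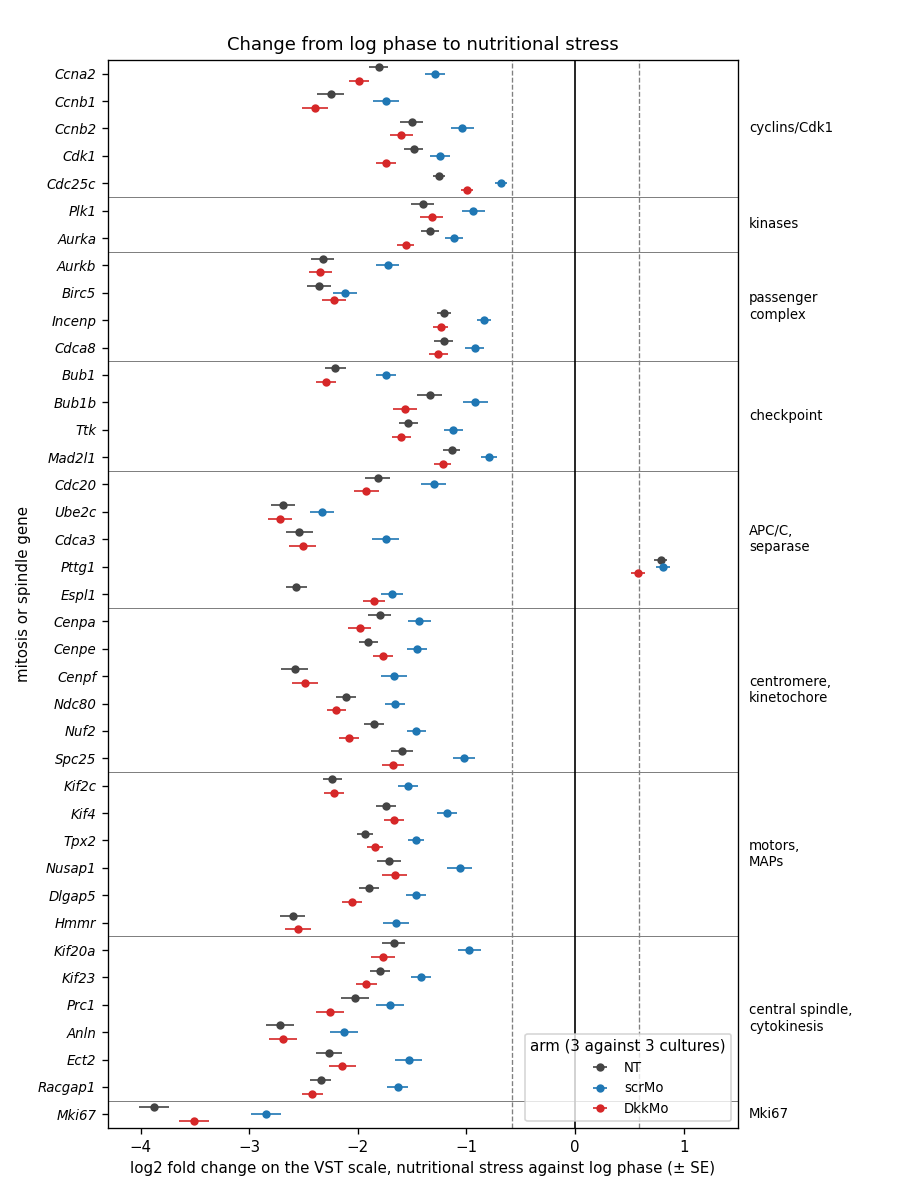
Points give the log2 fold change on the VST scale of each gene from log phase to nutritional stress in NT (grey), scrMo (blue) and DkkMo (red) cultures, bars give ± SE from the limma fit, and dashed lines mark 1.5-fold. Only Pttg1 lies right of 0, Mki67 reaches -3.88 in NT, and the scrMo points lie nearest 0 for all 38 genes that fell.

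Kinetochore genes connect centromeres to the spindle, and all 6 fell in each arm, to a median of 5.02% of the log-phase count in NT, 11.1% with scrMo and 5.82% with DkkMo. Cenpf, a large kinetochore protein that accumulates in G2, changed most on the VST scale, while by counts Ndc80 fell further in NT and Nuf2 fell further with scrMo and DkkMo. It went from 950, 1076 and 1200 normalized counts to 21.0, 32.1 and 29.4 in NT, from 575, 431 and 623 to 43.3, 46.7 and 43.7 with scrMo, and from 905, 1590 and 1099 to 36.5, 60.2 and 48.9 with DkkMo. Its log2 changes were -2.58, -1.67 and -2.49 (SE 0.12 each). Spc25 changed least of these 6 on the VST scale, although by counts Cenpa and Cenpe kept more in NT and DkkMo cultures, and it belongs, with Ndc80 and Nuf2, to the complex that grips microtubules. It went from 376, 481 and 475 to 26.2, 30.1 and 41.7 in NT, from 303, 214 and 278 to 43.3, 44.0 and 48.6 with scrMo, and from 418, 705 and 465 to 35.5, 41.9 and 43.1 with DkkMo. Nuf2 went lower: 384, 476 and 455 became 13.1, 14.5 and 7.59 in NT, 305, 238 and 267 became 7.64, 13.8 and 7.78 with scrMo, and 497, 698 and 466 became 13.2, 16.3 and 4.66 with DkkMo. Ndc80 kept 1.74% in NT. Cenpa, the histone variant that marks centromeres, kept 12.1%, 16.9% and 11.2%, and Cenpe, a kinetochore motor, kept 9.98%, 14.0% and 12.8%.

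The motors and microtubule-associated proteins of the spindle fell in all 6 cases with a value. Kif2c, the kinesin that takes tubulin off microtubule ends at centromeres, came closest to absence. It went from 492, 498 and 564 normalized counts to 3.49, 3.11 and 0.948 in NT, the last being a single read, from 360, 258 and 338 to 8.91, 13.8 and 16.5 with scrMo, and from 541, 826 and 557 to 12.2, 10.2 and 11.6 with DkkMo. With 8 reads over the 3 stressed NT libraries, the share that remained was 0.486% (exact 95% counting interval 0.210% to 0.957%). Hmmr, a microtubule-binding protein of spindle poles, changed most on the log2 scale. It went from 764, 880 and 869 to 11.3, 6.22 and 4.74 in NT, from 567, 394 and 493 to 26.7, 44.9 and 34.0 with scrMo, and from 787, 1386 and 1046 to 19.3, 27.6 and 39.6 with DkkMo. The changes were -2.60, -1.65 and -2.55 (SE 0.12 each). Nusap1, which bundles microtubules near chromosomes, changed least on the VST scale, but by counts it kept 6.56%, 13.9% and 8.83%, less than Tpx2 and Kif4. It went from 449, 552 and 510 to 33.2, 28.0 and 37.9 in NT, from 266, 207 and 262 to 34.4, 38.5 and 29.2 with scrMo, and from 432, 819 and 487 to 43.6, 63.3 and 46.6 with DkkMo. Dlgap5, a stabiliser of kinetochore fibres, went from 700, 821 and 748 to 64.6, 72.6 and 45.5 in NT, from 563, 450 and 547 to 61.1, 60.5 and 78.7 with scrMo, and from 767, 1133 and 847 to 51.7, 71.5 and 78.0 with DkkMo. Tpx2, the activator of Aurka on microtubules, kept 20.1%, 29.5% and 22.3%, and Kif4, a chromosome-bound kinesin, kept 12.2%, 23.7% and 15.6%.

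Cytokinesis genes fell in all 6 cases and in each arm. Anln, the actin-binding scaffold of the contractile ring, had 3242, 3613 and 3591 normalized counts in log-phase NT, 1900, 1758 and 2406 with scrMo and 2780, 4862 and 3711 with DkkMo. Its stressed values were 291, 325 and 334, then 257, 258 and 301, then 308, 412 and 366, with log2 changes of -2.72, -2.13 and -2.69 (SE 0.13 each). Kif20a, the motor that carries the passenger complex to the midzone, changed least, from 1043, 1238 and 1174 to 181, 236 and 195 in NT, from 797, 605 and 660 to 261, 228 and 223 with scrMo, and from 1119, 1730 and 1138 to 206, 211 and 238 with DkkMo. It shares 29.3% of its exonic bases with Cdc23 on the opposite strand, itself an APC/C gene that fell. Racgap1 and Ect2 form the pair that switches on RhoA at the cell equator. Racgap1 went from 4568, 5158 and 5015 to 762, 767 and 728 in NT, from 3298, 2689 and 3156 to 770, 826 and 798 with scrMo, and from 4728, 6827 and 4805 to 800, 743 and 817 with DkkMo. The 9 stressed cultures thus lay between 728 and 826 whatever the arm. Ect2 went from 803, 925 and 912 to 34.1, 34.2 and 40.8 in NT, from 465, 591 and 738 to 85.3, 66.9 and 75.8 with scrMo, and from 772, 1353 and 1094 to 59.9, 88.8 and 89.7 with DkkMo. Its stressed NT cultures lay below all 6 stressed morpholino cultures. Prc1, the bundler of the central spindle, kept 16.4%, 19.2% and 13.2%, and Kif23, the kinesin partner of Racgap1, kept 14.7%, 19.9% and 12.7%.

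**Figure D3:**
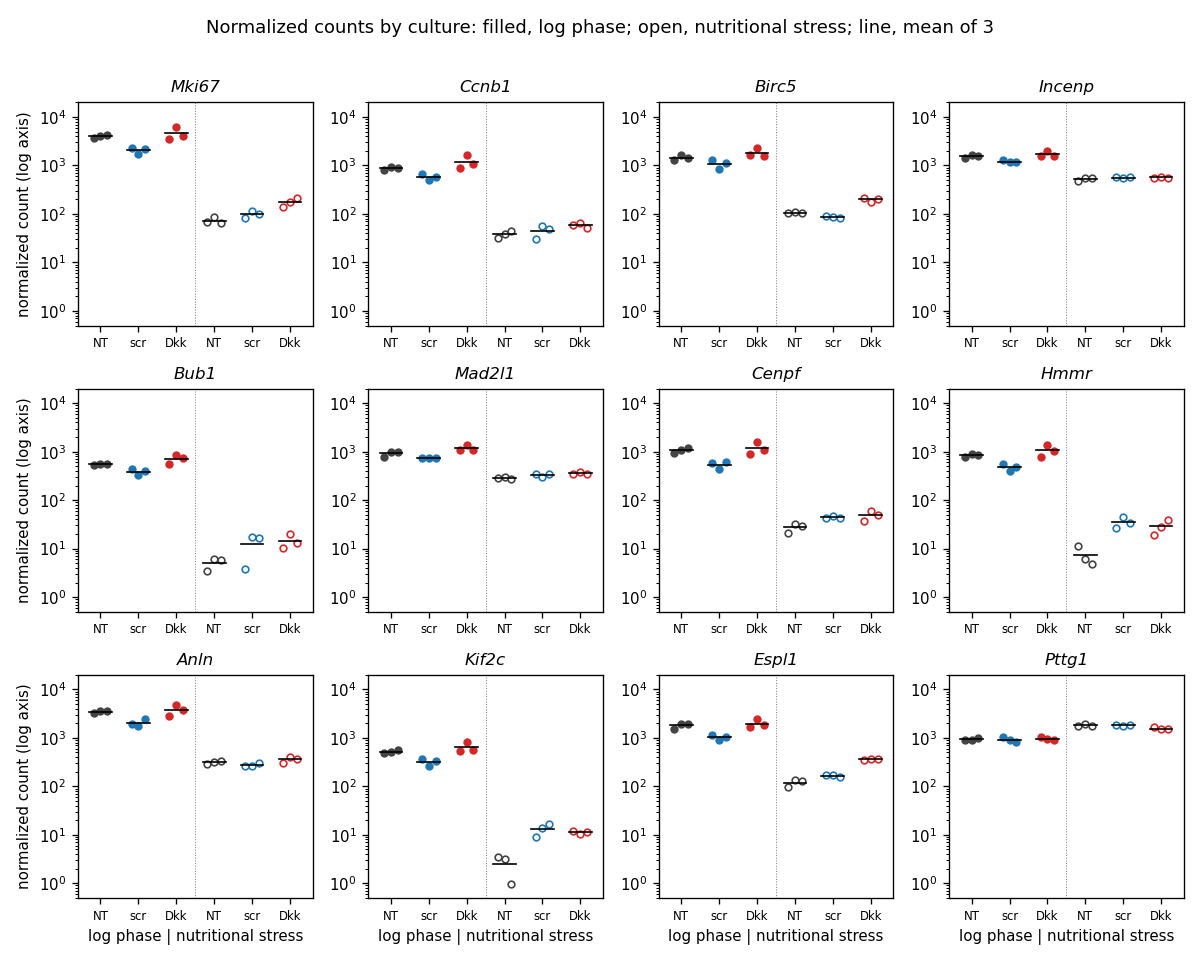
Each panel plots the normalized count of a gene on a log axis in 18 cultures, filled for log phase and open for nutritional stress, with a line at the mean of 3. Mki67, Ccnb1, Bub1, Hmmr and Kif2c drop by more than an order of magnitude, Incenp and Mad2l1 drop less, and Pttg1 rises from a mean of 943 to one of 1819 in NT.

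The arms differed while cells were growing. In log phase 28 of 39 genes were called higher with DkkMo than with scrMo, and none lower, while 1.66% of all tested genes were called higher and 0.308% lower. The median log2 difference was 0.63, and 38 genes passed the adjusted p without the fold threshold, as did 14.3% of all genes in that direction. Mki67 differed most, by 1.01 ± 0.14 (adjusted p = 4.33e-05 by limma), with means of 4566 ± 1384 (SD, n = 3) against 2084 ± 342 normalized counts. Cenpf (0.85 ± 0.12), Hmmr (0.83 ± 0.12), Cdca3 (0.80 ± 0.13) and Anln (0.80 ± 0.13) followed, and the smallest difference was that of Pttg1 (0.05 ± 0.06, adjusted p = 0.639). By role the calls were 4 of 5 cyclin and Cdk1 genes, 1 of 2 kinases, 2 of 4 passenger genes, 2 of 4 checkpoint genes, 4 of 5 APC/C genes, 5 of 6 kinetochore genes, 4 of 6 motors, 5 of 6 cytokinesis genes and Mki67.

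These calls rested in good part on single libraries. Replicates of log-phase scrMo and DkkMo differed most beyond counting noise (chi-square per gene up to 44.6 and 36.9). The fit shared one spread over all groups, so the SEs above may be too small. Log-phase DkkMo replicate 2 was the highest of its group for 38 of 39 genes, with a median of 1363 normalized counts against 868 and 1046 in the other two. Without it, 8 genes were called higher in place of 28 (1.04% of all genes). Log-phase scrMo replicate 2 was the lowest of its group for 33 of 39 genes, with a median of 510 against 644 and 585, and without it 17 genes were called (1.24% of all genes). All 39 differences were above 0 in the full set, and median centring of each library left 18 calls (1.25% of all genes). As given above, the osteoblast marker sum was lower in log-phase scrMo than in log-phase DkkMo, with no overlap. The leucocyte marker sum, nearly all of it Cd68, was higher in log-phase scrMo, also with no overlap.

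Set against untreated log-phase cultures, only the control morpholino had called genes, and which arm moved was not tested. With scrMo, 9 of 39 genes were called lower than in log-phase NT and none higher (1.85% of all genes lower, 0.592% higher), with a median log2 difference of -0.45, and 36 genes passed the adjusted p alone, as did 14.6% of all genes in that direction. The 9 were Plk1 (-0.63 ± 0.11), Bub1b (-0.63 ± 0.11), Espl1 (-0.67 ± 0.10), Cenpf (-0.74 ± 0.12), Nusap1 (-0.64 ± 0.11), Prc1 (-0.59 ± 0.13), Anln (-0.72 ± 0.13), Racgap1 (-0.64 ± 0.10) and Mki67 (-0.87 ± 0.14). Without log-phase scrMo replicate 2 the count was 4 (1.59% of all genes), and without replicate 1 it was 14 (2.02%). With DkkMo no gene of the set was called against NT in either direction by limma (0.314% of all genes lower, 0.513% higher), 16 had an unadjusted p below 0.05, all higher, and limma-voom on the recovered reads also called none. The median log2 difference of DkkMo from NT was 0.18, and all 39 genes were higher with DkkMo. For Mki67 the DkkMo difference from NT was 0.14 ± 0.14, and log-phase DkkMo replicates 1 and 3 read 3496 and 4074 against 3656 to 4286 in NT. The DkkMo against scrMo and scrMo against NT comparisons share the log-phase scrMo cultures, so they are not separate evidence.

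**Figure D4:**
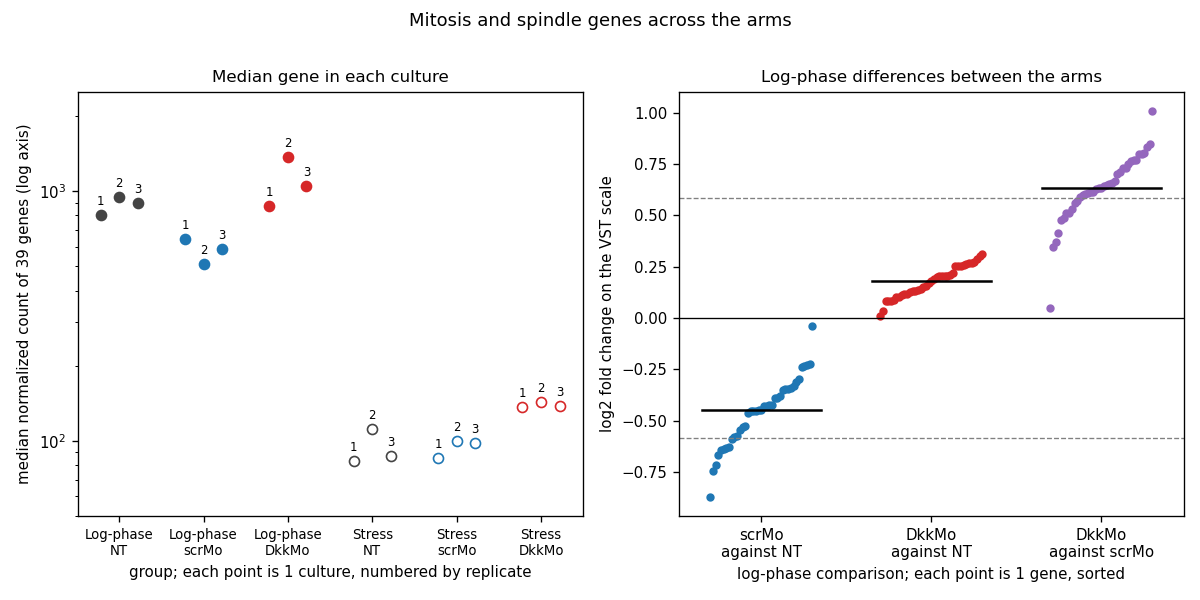
The left panel plots the median normalized count of 39 genes in each culture on a log axis, numbered by replicate, and the right panel plots each gene's log2 difference between log-phase arms with the median as a bar and dashed lines at 1.5-fold. The scrMo log-phase cultures lie at 510 to 644, below NT at 803 to 949 and DkkMo at 868 to 1363, and the medians on the right are -0.45, 0.18 and 0.63.

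Under nutritional stress few genes separated the arms. Espl1 was the only gene called between DkkMo and scrMo, higher by 0.60 ± 0.10 (limma adjusted p = 0.000216), while 0.513% of all genes were called higher and 0.489% lower. Espl1 was also the only call between DkkMo and NT, higher by 0.81 ± 0.10 (adjusted p = 3.95e-06), where 1.12% of all genes were called higher and 1.54% lower. Its 3 stressed DkkMo cultures at 354 to 362 normalized counts lay above every other stressed culture, which reached 171 at most. Between DkkMo and NT, 13 genes had an unadjusted p below 0.05 by limma in the higher direction and 1 in the lower, and limma-voom called 9 higher. No share of all genes is set beside those counts, so they are not results about the set. No gene was called between scrMo and NT by limma (1.90% of all genes higher, 2.54% lower), where 6 had an unadjusted p below 0.05, all higher, and limma-voom called 4, at 11.2% of all genes and so no more than the background. The median log2 differences of the set were 0.04, 0.16 and 0.06 in these 3 comparisons, of which each pair shares a group of cultures.

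On a scale that compresses low counts less than the VST scale, more genes separated the morpholino cultures from NT. With log2 of the normalized count plus 1, 16 genes were called higher with DkkMo than NT under stress and 9 with scrMo than NT, with no gene lower, but 10.0% and 11.2% of all tested genes were then called higher too. The 9 called with scrMo were Cdc25c, Aurkb, Bub1, Ttk, Cdca3, Cenpf, Kif2c, Hmmr and Ect2. For Hmmr the differences from NT on that scale were 2.15 ± 0.28 with scrMo and 1.84 ± 0.28 with DkkMo, and for Kif2c they were 2.05 ± 0.27 and 1.90 ± 0.27. These 9 genes had means under 50 normalized counts in stressed NT cultures, and Mki67, with a mean of 72.9, was 1.25 ± 0.19 higher with DkkMo on the same scale.

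Whether the stress response itself differed between arms was tested by the interaction of culture condition with treatment. The fall was larger with DkkMo than with scrMo for 17 of 39 genes and larger with scrMo for none, while 2.83% of all genes had a called interaction in the lower direction and 0.869% in the higher. Hmmr (-0.90 ± 0.17), Cenpf (-0.82 ± 0.17), Kif20a (-0.79 ± 0.15), Racgap1 (-0.79 ± 0.14) and Cdca3 (-0.76 ± 0.18) led. The others were Ccna2, Ccnb1, Aurkb, Bub1b, Cdc20, Nuf2, Spc25, Kif2c, Nusap1, Dlgap5, Ect2 and Mki67. Without log-phase DkkMo replicate 2 the count was 4 (2.04% of all genes), and without log-phase scrMo replicate 2 it was 9 (2.40%). Median centring left 6 (1.92%), and limma-voom called 3 where it called 6.01% of all genes, so the pattern was near the background in that fit. The stressed values of DkkMo and scrMo differed little for these genes (for Racgap1 by -0.02 ± 0.10 log2 units), and the interaction was about the size of the log-phase difference (0.77 ± 0.10). The fall was smaller with scrMo than in NT for 12 genes and larger for none, with 5.55% of all genes called higher and 5.37% lower: Mki67 (1.03 ± 0.20), Hmmr (0.95 ± 0.17), Cenpf (0.91 ± 0.17), Espl1 (0.88 ± 0.14), Cdca3, Ect2, Racgap1, Kif20a, Kif2c, Nusap1, Aurkb and Anln. Between DkkMo and NT the fall differed for Espl1 on the VST scale, by 0.71 ± 0.14 (limma adjusted p = 0.00102), where 1.53% of all genes were called higher and 2.38% lower. With log2 of the normalized count plus 1 there were 9 such genes (8.34% of all genes), and with limma-voom 3 (8.22%).

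Other genes of the cell cycle had smaller median changes. In NT cultures the median log2 change of the 39 genes (-1.85) was set beside 9 other lists, whose counts stand beside 9.90% of all genes called lower and 8.22% called higher. Of 34 other kinetochore and checkpoint genes 27 were called lower and 1 higher, with a median of -0.88. Zwilch, of the RZZ complex that recruits dynein, changed most, from 954 ± 82.7 to 28.5 ± 4.92 normalized counts (-2.44 ± 0.08), and Zwint, a kinetochore partner of that complex, was the gene that rose, by 0.68 ± 0.06. Of 28 other spindle, centrosome and cytokinesis genes 22 were called lower and none higher (median -1.47), led by Troap, a microtubule-associated protein (901 ± 98.6 to 22.8 ± 1.65). With scrMo, 18 of these 28 were lower and Psrc1, a spindle-associated protein, was higher by 1.14 log2 units.

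Structural subunits, regulators and G1 genes had medians nearer 0. Of 16 condensin and cohesin subunits 7 were called lower in NT (median -0.26), led by the condensin subunit Ncapd2 (2673 ± 257 to 386 ± 40.1). Stag2, a cohesin subunit, was called higher with scrMo (0.62) and DkkMo (0.66), and Wapl, which releases cohesin, with DkkMo (0.60). Of 14 core subunits of the APC/C 4 were lower (median -0.36), with Cdc23 the largest at -0.92, and the 11 tubulins had 2 called lower (median -0.19), with Tubb3 the largest at -0.89. The 21 transcription regulators had 6 called lower (median -0.10), led by the repressor E2f7 (531 ± 102 to 41.9 ± 4.77 normalized counts). Of 8 G1 cyclins and kinases only Ccnd1 was called, at -1.30, and of 4 CDK inhibitors only Cdkn2c, at -0.93, while Cdkn1b (p27) was called higher with scrMo alone (0.63). Of the DNA replication genes, 23 of 35 were called lower and none higher (median -0.93), and Mcm3, a helicase subunit, changed from 2672 ± 352 to 173 ± 10.9. The shares of G1 genes (1 of 8) and tubulins (2 of 11) were close to that of all genes. No test of these lists against each other was made.

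**Figure D5:**
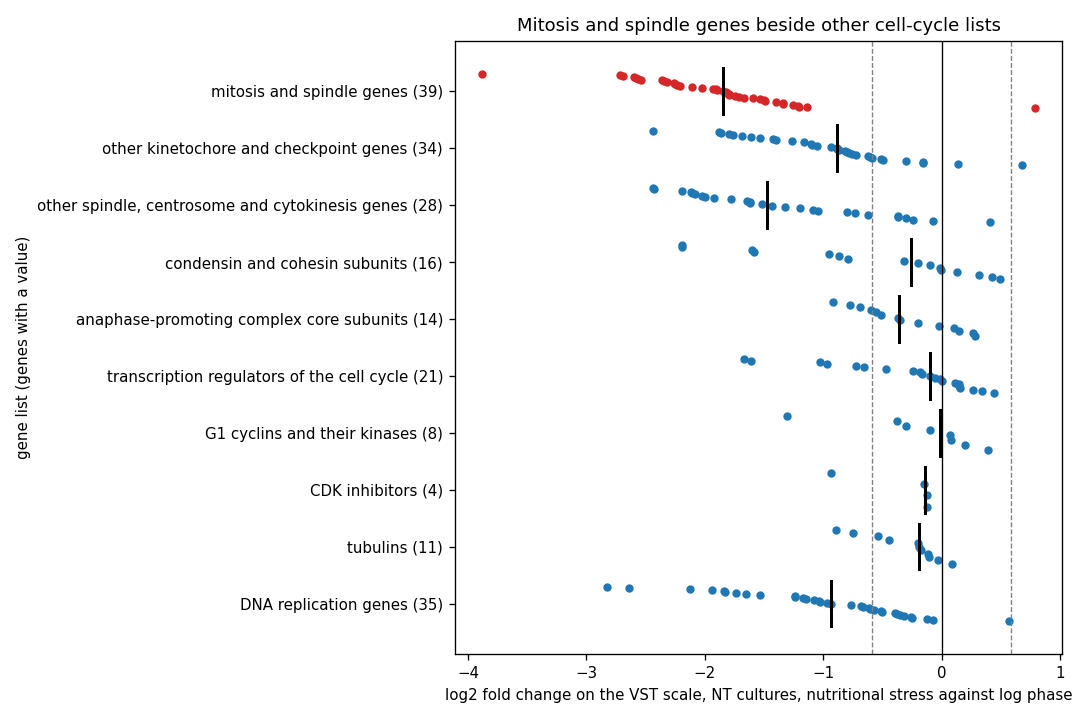
Each point is the log2 fold change on the VST scale of a gene in NT cultures from log phase to nutritional stress, in the mitosis and spindle set (red) and 9 other lists (blue), with the number of genes with a value in brackets, a bar at the median and dashed lines at 1.5-fold. The mitotic set has the lowest median, -1.85, and the G1 cyclin list lies nearest 0.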

How the data were processed

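RNA was sequenced from 18 cultures of MOSJ-Dkk-1 cells, 3 in each of 6 groups. According to the submitters' processing notes, the authors used HISAT2 2.1.0, SAMtools 1.9, featureCounts of Subread 2.0.0, StringTie and DESeq2 on GRCm38, and they deposited variance-stabilised log2 values. Whether counting used strand is not given in the sources used here. The transformation was reversed to normalized counts and to reads, of which 100% were whole within 0.05 up to 2000 reads. Of 16576 genes, 14 rows whose values spanned over 6 within a group were set aside, and 16562 were tested. A filter asking for a value above the lowest in 3 libraries removed none. One mean per group was fitted to all 18 libraries with limma 3.58.1 in R 4.3.3, with a variance trend, and p values were adjusted by Benjamini-Hochberg over all tested genes in each of 12 comparisons. Replicates differed by more than counting noise (chi-square per gene 3.43 to 44.6). The values were 12.05 to 44.61 in log-phase scrMo, 18.7 to 36.87 in log-phase DkkMo and 4.93 to 17.73 in log-phase NT. Stressed groups lay at 3.43 to 10.63. The fit shared one spread over all groups, so SEs and p values of comparisons with the log-phase morpholino groups may be too small. The fit was also run on simulated data with independent noise and planted changes. Those data held no shift shared by the genes of a library and no unequal spread between groups. That run therefore cannot speak to calls that rest on single libraries. Annotation was GENCODE M21, and a near-identical copy matched at least 25% of a transcript at 90% identity. The members and lists were chosen with earlier results of these data known. Values in every library are given for Mki67, for the largest and smallest mean change of each role, and for genes called in an interaction or against the majority. Alternatives covered filters, scaling, transformation, thresholds, the variance model, the samples fitted, the replicate number as a block and each replicate left out. Tumours were not analysed here. All columns of the culture table were mapped to samples.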

Additional observations from a re-analysis of the deposited data

Results flagged for a closer look

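The results listed here are genes whose response to nutritional stress differed between treatments by a test of the difference itself, the interaction in the limma fit at an adjusted p below 0.05 and over 1.5-fold. Groups of 3 cultures are too small for a test of single outlying samples.

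Between DkkMo and scrMo cultures, a negative value means a larger fall with DkkMo. In this interaction 2.83% of all genes were called lower and 0.869% higher. Among cyclins the interaction was -0.70 log2 units for Ccna2 and -0.65 for Ccnb1. In the passenger complex and checkpoint it was -0.62 for Aurkb and -0.65 for Bub1b, and around the APC/C it was -0.62 for Cdc20 and -0.76 for Cdca3. Kinetochore genes gave -0.82 for Cenpf, -0.62 for Nuf2 and -0.655 for Spc25. Spindle genes gave -0.68 for Kif2c, -0.60 for Nusap1, -0.59 for Dlgap5 and -0.90 for Hmmr. Cytokinesis genes gave -0.79 for Kif20a, -0.61 for Ect2 and -0.79 for Racgap1, and Mki67 gave -0.66. All 17 rest on the log-phase scrMo and DkkMo cultures described above, and 4 calls were made without log-phase DkkMo replicate 2 (2.04% of all genes). Median centring called 6 (1.92% of all genes) and limma-voom 3 (6.01%).

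Between scrMo and NT cultures, a positive value means a smaller fall with scrMo. It was 0.60 for Aurkb, 0.80 for Cdca3, 0.88 for Espl1, 0.91 for Cenpf, 0.70 for Kif2c and 0.65 for Nusap1. It was 0.95 for Hmmr, 0.70 for Kif20a, 0.59 for Anln, 0.73 for Ect2, 0.71 for Racgap1 and 1.03 for Mki67. These comparisons share the scrMo cultures with the set before. In the scrMo and NT interaction 5.55% of all genes were called higher and 5.37% lower. All 39 genes were lower in log-phase scrMo than in log-phase NT. Stressed NT means of Kif2c, Hmmr and Cdca3 were 2.52, 7.44 and 12.4 normalized counts, where the VST scale compresses values.

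Between DkkMo and NT cultures Espl1 alone was called on the VST scale, at 0.71, with stressed DkkMo cultures at 354 to 362 normalized counts and stressed NT cultures at 96.1 to 136. In that interaction 1.53% of all genes were called higher and 2.38% lower.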

How the results depend on the processing

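The 38 falls in each arm were called again whichever replicate was left out. A 2-fold threshold left fewer than 38 falls with scrMo and with DkkMo. The log2 changes of Cdc25c, for example, were -0.68 and -0.99 there. Keeping only genes above the median mean left 10, 10 and 10 falls (NT, scrMo, DkkMo), 7 log-phase calls of DkkMo over scrMo, 5 of scrMo under NT, 3 interactions of DkkMo with scrMo and 4 of scrMo with NT, because fewer genes of the set were tested. A 2-fold threshold left 0 rises in NT and scrMo, 1 and 0 log-phase calls, 0 stress calls with DkkMo against scrMo or NT, and 0, 0 and 1 interactions (DkkMo with scrMo, DkkMo with NT, scrMo with NT). Without a fold threshold there were 1 rise with DkkMo, 2 log-phase calls of DkkMo over NT and 36 of scrMo under NT. Under stress there were then 4 (DkkMo over scrMo, 9.97% of all genes), 8 higher and 1 lower (DkkMo against NT, 19.0% and 22.7%) and 4 (scrMo over NT, 22.1%), shares near or below those of all genes, and the interactions numbered 32, 2 and 31 (13.2%, 12.3% and 22.8%). Median centring moved the all-gene medians to 0.14, 0.06 and 0.15 (NT, scrMo, DkkMo), with 6.76% of all genes lower and 13.5% higher in NT, and gave 18 log-phase calls of DkkMo over scrMo, 6 interactions of DkkMo with scrMo and 1 rise with DkkMo. Quantile normalization also gave 1. With log2 of the normalized count plus 1 there were 1 rise with DkkMo, 17 log-phase calls of scrMo under NT, 6, 16 and 9 stress calls (DkkMo over scrMo, DkkMo over NT, scrMo over NT), and 9 and 21 interactions with NT (DkkMo, scrMo). With limma-voom the same counts were 1, 20, then 3, 9 and 4, and 3 interactions each of DkkMo with scrMo and with NT. That fit also gave 35 log-phase calls of DkkMo over scrMo and 15 interactions of scrMo with NT. Where shares of all genes are given above for limma-voom or the log2 count scale, more of all genes were called too. Counts in this section with no share of all genes, here or above, describe the setting and are not results about the set. The cause of these shifts was not tested.

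Leaving out each replicate gave 0 to 1 rises with DkkMo, 8 to 32 log-phase calls of DkkMo over scrMo, 4 to 14 of scrMo under NT, 4 to 25 interactions of DkkMo with scrMo, 1 to 2 of DkkMo with NT and 10 to 14 of scrMo with NT. With the replicate block the counts stayed at 38 (scrMo), 38 (DkkMo), 28, 9 and 17. Of 30 correlations between same-numbered cultures 8 were over 0.1, so the numbers were not taken to pair the cultures. Between log-phase DkkMo and scrMo they were 0.624, -0.0487 and 0.570, so 2 of those 3 pairs did deviate together. No paired analysis was possible for comparisons with stressed NT because 2 of its libraries carry the same number. Keeping in the 14 rows set aside, an alternative chosen after seeing the data, changed no call. Genes with under 50 normalized counts under stress are limited by depth and by the compressed scale.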

Other observations

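In the morpholino arms the counts of the other cell-cycle lists stand beside 6.28% (scrMo) and 10.2% (DkkMo) of all genes called lower. With scrMo and DkkMo, 21 and 28 of 34 other kinetochore and checkpoint genes were called lower under stress, 18 and 24 of 28 other spindle genes, 5 and 7 of 16 condensin and cohesin subunits, and 2 and 5 of 14 APC/C core subunits. Of 21 transcription regulators 3 and 6 were lower, of 8 G1 cyclins and kinases 2 and 1, of 4 CDK inhibitors 1 and 1, of 11 tubulins 5 and 5, and of 35 DNA replication genes 23 and 30. On the log2 scale Zwilch changed by -1.82 with scrMo and -2.28 with DkkMo, and Mcm3 by -2.30 and -2.83. Ccnd1, the cyclin that carries growth signals into G1, changed by -1.28 and -1.53.

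The transcript 2700099C18Rik matches 34.7% of the length of the Ndc80 transcript at 92.7% of aligned bases. It went from a mean of 494 to 41.7 normalized counts in NT cultures, the same direction as Ndc80.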
